A study of Mus musculus with 40 samples.

Results

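The choroids of mice that lacked endothelial *Tgfbr2* while their mononuclear phagocytes (MP) were depleted were compared with those of littermates on the same diet. Choroids were taken by their labels, which gave tissue, genotype and diet, so that 10 of the 40 libraries of the study entered the comparison, 5 from each genotype. All mice were homozygous for floxed *Tgfbr2*, were on a C57BL/6J background and came from both sexes. The Tgfbr2ΔEC mice (mice 16 to 20) additionally carried one copy of the tamoxifen-inducible recombinase Cdh5-CreERT2, which is active in vascular endothelium throughout the body. The controls (mice 11 to 15) were littermates without it. Both genotypes received tamoxifen eye drops on 5 days from an age of 6 to 7 weeks. Both were fed PLX5622 (PLX), an inhibitor of the CSF1 receptor on which MP depend, from the first tamoxifen dose until the end. Each eye received 6 laser burns, which open Bruch's membrane and start choroidal neovascularization (CNV). The central choroid with its lesions was sequenced 3 days later, without sorting of cells. The 10 choroids on normal diet, 5 of each genotype, entered the same statistical fit and served as the comparison with MP present. These groups are called control + PLX, Tgfbr2ΔEC + PLX, control – PLX and Tgfbr2ΔEC – PLX.

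TGF-β is secreted in a latent form and signals through a complex of TGFBR2 and a type 1 receptor, which phosphorylates SMAD proteins. In endothelium the type 1 receptors ALK5 (*Tgfbr1*) and ALK1 (*Acvrl1*), with the co-receptor endoglin, pass the signal to different SMADs and thereby to different target genes. The pathway is known for keeping vessels quiescent and for recruiting mural cells. *Tgfbr2* is also expressed outside the endothelium, and the vessels next to the retinal pigment epithelium are fenestrated capillaries supplied by epithelial VEGF.

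The deposited normalized counts summed to between 25017360 and 25956180 in the 10 choroids with PLX, from an estimated 22146911 to 27762892 reads. Endothelial RNA was well represented: none of the 12 endothelial markers was at 0 in either genotype, and their mean log2(normalized count + 1) lay between 11.44 and 11.78 in controls and between 11.56 and 11.78 in Tgfbr2ΔEC choroids. The score of 16 MP markers ran from 8.35 to 8.997 in the controls with PLX and from 8.10 to 8.73 in the Tgfbr2ΔEC choroids with PLX, against 11.01 to 11.24 and 10.97 to 11.16 in the corresponding choroids on normal diet. In bulk RNA, fewer MP and less RNA per MP cannot be told apart. Choroid 15, a control, stood apart in neural RNA: its score of 10 neural retina markers was 12.65, while the other 4 controls lay at 6.99, 9.47, 7.83 and 9.64 and the Tgfbr2ΔEC choroids at 10.05, 9.03, 10.08, 10.08 and 8.53. High *Xist* RNA and low Y-linked RNA marked 2 of the 5 control and 4 of the 5 Tgfbr2ΔEC mice with PLX. With the sex score as a covariate the adjusted p of the one called gene, *Gm8748*, was 0.0794 by limma, and with the neural retina score it was 0.0551. Values without choroid 15 are given beside the main results.

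**Figure D1:**
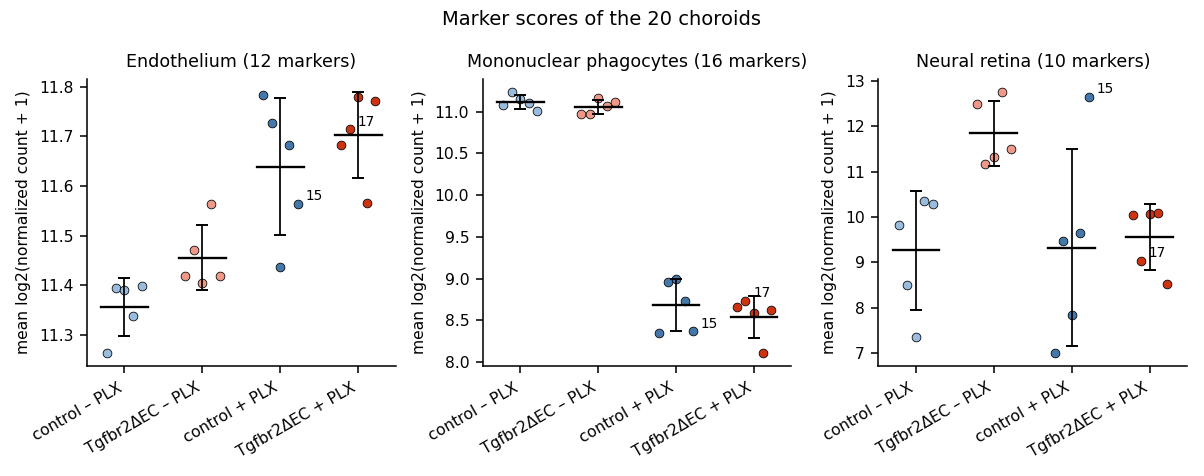
Mean log2(normalized count + 1) over 3 marker lists in each of the 20 choroids (1 point per mouse, bar and whiskers for mean ± SD of the 5 mice of a group). The 10 choroids with PLX sit at or below 8.997 for phagocyte markers, all below the choroids on normal diet, and choroid 15 sits highest of its group for neural retina markers.

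Genotype was not visible in the RNA of the deleted gene. *Tgfbr2* (ENSMUSG00000032440, chromosome 9, 115913361 to 116004800 of GRCm39) stood at 12801, 9434, 11298, 12475 and 9767 normalized counts in mice 11 to 15. In mice 16 to 20 it stood at 11072, 10817, 11999, 11163 and 11049. The Tgfbr2ΔEC values all fell inside the range of the controls. The means were 11155 ± 1529.8 (SD, n = 5) and 11219.9 ± 454 (SD, n = 5), a log2 difference of 0.02 with a 95% interval from -0.17 to 0.20 (exact permutation test, p = 0.865), and the sign turned without choroid 15 (-0.03). Gene totals do not show which exons were read, and how much of the choroidal *Tgfbr2* RNA is endothelial was not measured. The authors checked the deletion by PCR and qPCR of choroidal tissue and report it for choroidal and retinal endothelium. The endothelial cadherin *Cdh5*, whose promoter drives the recombinase, differed by 0.09 (standard error 0.16) and *Pecam1*, an adhesion molecule of endothelial junctions, by -0.01 (standard error 0.10) on the log2 scale. Both took both signs when each mouse was left out (-0.03 to 0.19 and -0.07 to 0.06).

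Across genes, the genotypes were hardly separable with PLX. Limma on log2(normalized count + 1), with the 4 groups of 20 choroids in one fit, called 1 of 23619 genes at an adjusted p at or under 0.05 (Benjamini-Hochberg), which is 0.00423% of the genes tested. An unadjusted p under 0.05 was reached by 889 genes (3.76%), 457 of them higher (1.93%) and 432 lower (1.83%) in Tgfbr2ΔEC + PLX choroids. With scaling over choroid-enriched genes these were 299 higher and 609 lower. Without choroid 15, 0 genes were called by limma, the smallest adjusted p was 0.104, while 1096 genes (4.64%) reached an unadjusted p under 0.05, 602 of them higher (2.55%) and 494 lower (2.09%). The median log2 difference over all tested genes was 0.00 and the median standard error 0.25. The 95% interval lay inside 1 log2 unit in either direction for 59.2% of all tested genes. Of the 13220 genes with a mean of at least 100 normalized counts, 93.0% had such an interval, so for these genes a doubling or halving lay outside the interval.

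This one gene, *Gm8748* (ENSMUSG00000110019), is annotated as a processed pseudogene and lies on the forward strand of chromosome 8 (104797781 to 104798367 of GRCm39). It ends 29863 bases upstream of the start of *Cdh5* on the same strand. Its closest protein-coding relative is the ribosomal protein gene *Rps7*, with 90.8% identity over 588 aligned bases. The stretches shown are the 130 aligned bases without a gap that differ most, since these differences are what lets a read be assigned to the pseudogene; capitals mark the 13 bases that differ. Bases 434 to 563 of *Gm8748* (chr8:104798214-104798343, GRCm39, forward strand) stand above bases 432 to 561 of the *Rps7* coding sequence.
Gm8748: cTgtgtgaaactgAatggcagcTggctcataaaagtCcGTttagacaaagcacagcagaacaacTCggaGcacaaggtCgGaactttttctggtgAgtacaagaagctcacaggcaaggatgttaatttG
Rps7: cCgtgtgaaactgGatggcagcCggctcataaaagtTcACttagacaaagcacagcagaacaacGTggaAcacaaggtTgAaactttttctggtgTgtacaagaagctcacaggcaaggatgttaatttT
Of the 538 windows of 50 bases in *Gm8748*, the read length used, 514 occur in no transcript of another annotated gene.

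None of the 5 control + PLX choroids had a value above 0 for *Gm8748*. Mice 16 to 20 had normalized counts of 5.603, 3.0002, 17.5, 3.17 and 3.93. On normal diet it was likewise listed at 0 in every control and at 7.14 to 15.4 in the Tgfbr2ΔEC – PLX choroids, so that choroids with and without the recombinase did not overlap in either diet. In the 10 retinas with PLX it was listed at 0. In the other 10 retinas it was listed above 0 in 3, at 1.91 in a control and at 0.843 and 2.05 in Tgfbr2ΔEC mice. *Rps7* stood at 2724 to 4297 normalized counts in control + PLX and 2445 to 3287 in Tgfbr2ΔEC + PLX choroids. The log2 difference of *Gm8748* with PLX was 2.66 (standard error 0.39, adjusted p = 0.0281 by limma with Benjamini-Hochberg adjustment), of which the added 1 sets a part, and apart from choroids 16 and 18 the values lie near the floor of 3 reads (2.76 to 3.52 normalized counts). The call was lost without any one of mice 1, 5, 6, 9, 11 to 16 and 20 (adjusted p between 0.0502 and 0.124 by limma).

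Among protein-coding genes (mean not under 20), the 10 with the lowest p in each direction were examined as a description, none of them being past the adjusted threshold. Without choroid 15 all 20 kept their direction, with unadjusted p by limma of 0.0106 (*Fkbp5*) or less. The 20 were picked by p in these same choroids, so kept direction, low p and non-overlap follow in part from the choice. Higher in Tgfbr2ΔEC + PLX choroids were *Ptgfr*, the receptor of prostaglandin F2α, and *Alox12*, a lipoxygenase of arachidonic acid. *Ptgfr* stood at 312, 389, 512, 337 and 366 normalized counts in controls and at 543, 642, 707, 768 and 713 in Tgfbr2ΔEC choroids. The groups did not overlap, and the log2 difference was 0.83 (standard error 0.17, adjusted p = 0.9748 by limma) and 0.82 without choroid 15. *Alox12* stood at 170.0, 135, 115, 105 and 96.3 in controls and at 234, 241, 187, 261 and 202 in Tgfbr2ΔEC choroids, again without overlap (log2 difference 0.87, standard error 0.22, and 0.79 without choroid 15). Non-overlap of the 5 and 5 mice was seen in 121 of the 23619 genes (0.512%). On normal diet *Ptgfr* differed by 0.17 and *Alox12* by 0.50 on the log2 scale.

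The interferon-inducible GTPase *Tgtp1* and the interferon-inducible ubiquitin ligase *Trim21* were also in this list. *Tgtp1* stood at 503, 565, 338, 577 and 273 in controls and at 609, 735, 841, 1448 and 722 in Tgfbr2ΔEC choroids (log2 difference 0.94, standard error 0.22, and 0.77 without choroid 15). On normal diet its difference was -0.43, and the difference of both effects was 1.37 (adjusted p = 0.332 by limma). *Trim21* ranged from 327 to 483 in controls and from 510.1 to 663 in Tgfbr2ΔEC choroids (log2 difference 0.47, standard error 0.13). The other higher genes were *Slc26a10* (1.12), *Gpr160* (1.28), *Zfp457* (1.67), *Kctd12b* (0.38), *Pcgf5* (0.42) and the phospholipase gene *Plcb4* (0.40), given as log2 differences. On normal diet *Slc26a10*, of an anion exchanger family, differed by 1.40 in the same direction on the log2 scale. *Gpr160*, an orphan receptor gene, differed by -0.69 there, in the other direction (adjusted p = 0.332 by limma for the difference between diets).

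Lower in Tgfbr2ΔEC + PLX choroids were *Cyp1b1*, a cytochrome P450 that oxidizes steroids and retinoids, and *Fkbp5*, a glucocorticoid-induced co-chaperone of steroid receptors. *Cyp1b1* stood at 2719, 3245, 2547, 3202 and 2880.4 normalized counts in controls and at 2256, 1978, 2489, 2275 and 2076 in Tgfbr2ΔEC choroids. The groups did not overlap (log2 difference -0.40, standard error 0.11, and the same without choroid 15). *Fkbp5* stood at 2635, 2388, 2727, 2678 and 3329 in controls and at 1665, 872, 1739, 1217 and 2094 in Tgfbr2ΔEC choroids, also without overlap (log2 difference -0.91, standard error 0.28, and -0.84 without choroid 15). On normal diet *Fkbp5* differed by 0.38 in the other direction and *Cyp1b1* by -0.00, with adjusted p = 0.458 and 0.596 by limma for the difference between diets. The choline dehydrogenase *Chdh* (-0.87), the coenzyme A synthesis gene *Ppcdc* (-0.33), *Fdxacb1* (-0.55) and the scavenger receptor gene *Ssc4d* (-1.32) showed no overlap either. *Ppcdc* differed by 0.30 in the other direction on normal diet (adjusted p = 0.332 by limma for the difference between diets). The remaining genes were *Slc12a9* (-0.81), the ERK phosphatase *Dusp7* (-0.31), the interleukin subunit *Ebi3* (-0.82) and *Eef1ece2* (-4.98), again as log2 differences. *Ebi3* averaged 24.04 and 13.4 normalized counts in the choroids with PLX and reached the minimum mean of 20 through those on normal diet, at 104 and 103. *Eef1ece2* is a readthrough gene that shares exons with *Ece2*, and it was listed at 0 in 4 of the 5 Tgfbr2ΔEC choroids.

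**Figure D2:**
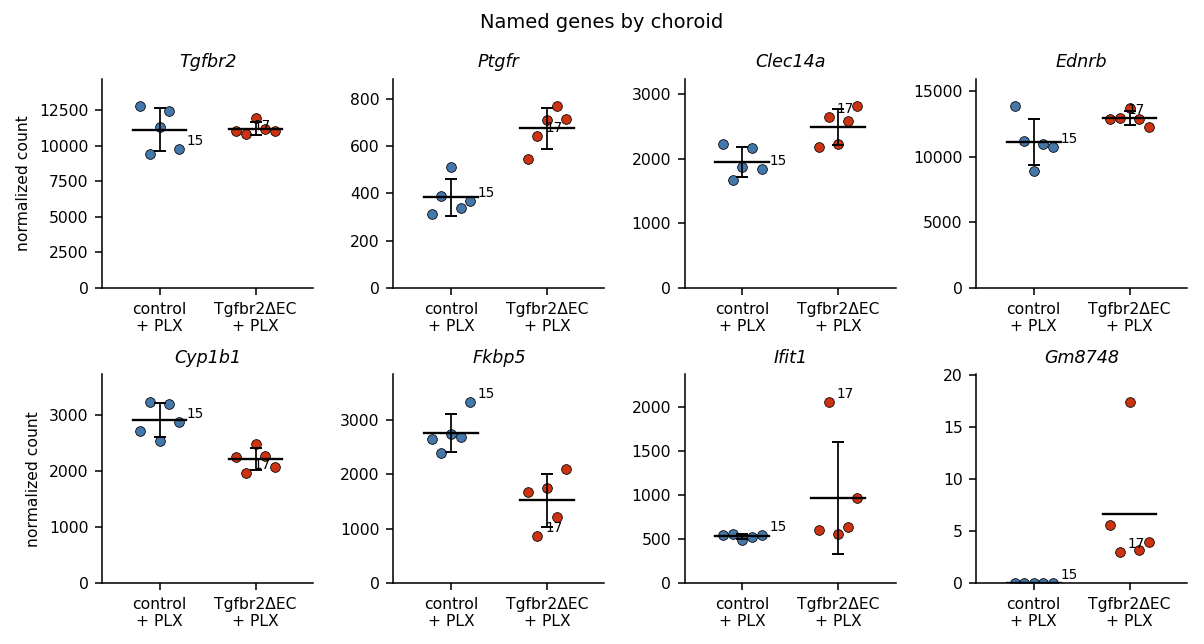
Normalized counts (vertical axis) of 8 genes in the 5 control + PLX and 5 Tgfbr2ΔEC + PLX choroids (1 point per mouse, bar for the mean, whiskers for the SD except for Gm8748, which was listed at 0 in controls). Tgfbr2 overlaps, Ptgfr, Cyp1b1 and Fkbp5 do not, and the Tgfbr2ΔEC mean of Ifit1 is carried by choroid 17 at 2066.

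Vascular genes were then examined by family. The 16 lists hold 258 genes, of which 255 were tested and 0 were past the adjusted threshold in limma, with or without choroid 15. An unadjusted p under 0.05 was reached by 9 of the 255 (3.53%, against 3.76% of all tested genes), 8 of them higher. Without choroid 15 it was reached by 15 (5.88%, against 4.64%), 11 of them higher and 4 lower. Of the 255, 58.4% had a higher estimate in Tgfbr2ΔEC + PLX choroids, against 50.3% of all tested genes, and the median log2 difference was 0.04. The 3849 genes at least 4 times higher in choroid than in retina had the same median, 0.04. For 232 of the 255 the 95% interval lay inside 1 log2 unit in either direction. Such an interval was found for 59.2% of all tested genes and for 93.0% of the 13220 genes with a mean of at least 100. Scaling over choroid-enriched genes moved the median of all tested genes to -0.04, and with it the medians of the TGF-β and BMP pathway (-0.013), VEGF (-0.005) and pericyte and smooth muscle (-0.0081) lists turned from positive to negative. When each choroid with PLX was left out in turn, the medians of the angiopoietin (-0.014 to 0.11), pericyte and smooth muscle (-0.0084 to 0.078), leukocyte adhesion (-0.069 to 0.063) and coagulation (-0.056 to 0.022) lists also took both signs.

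**Figure D3:**
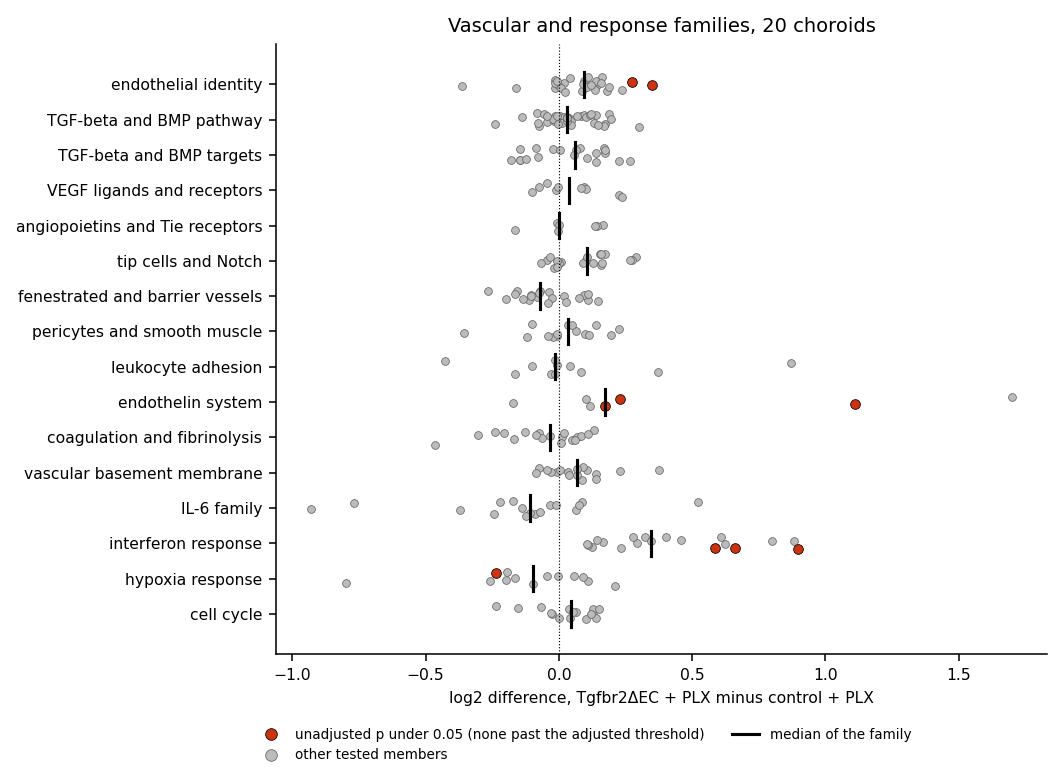
Log2 difference between Tgfbr2ΔEC + PLX and control + PLX choroids (horizontal axis) for each tested member of 16 gene families (1 point per gene, bar for the median of a family). Most members lie within 0.5 of 0, 9 genes have an unadjusted p under 0.05, and the interferon list is the only one with all its members above 0.

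Of 27 endothelial identity genes, 20 had higher and 7 lower estimates in Tgfbr2ΔEC + PLX choroids, with a median log2 difference of 0.10 (0.04 without choroid 15). The intervals of all 27 lay inside 1 log2 unit. The lowest p was that of *Clec14a*, an endothelial lectin involved in sprouting. It stood at 2223, 1669, 1873, 2164 and 1839.9 normalized counts in controls and at 2181, 2650.4, 2227, 2577 and 2813 in Tgfbr2ΔEC choroids, overlapping by choroid 16. Its log2 difference was 0.35 (standard error 0.11, unadjusted p = 0.0041 by limma) and 0.33 without choroid 15. *Egfl7*, a secreted protein of endothelial tube formation, ranged from 2744 to 3182 in controls and from 3122 to 4067 in Tgfbr2ΔEC choroids (log2 difference 0.28, unadjusted p = 0.036 by limma). Without choroid 15 *Egfl7* differed by 0.25, with unadjusted p = 0.078 by limma. *Kdr*, the main VEGF receptor of endothelium, differed by 0.24 (0.28 without choroid 15) and the junction protein gene *Jam2* by 0.18 (0.26 without it). When each mouse was left out, their lowest estimates were 0.13 for *Kdr* and 0.12 for *Jam2*. The largest estimate in the other direction was -0.36 for the guidance receptor gene *Robo4*. The most abundant members were *Vwf*, the platelet-binding protein of endothelial granules, at 0.01 (-0.16 without choroid 15) and the receptor phosphatase gene *Ptprb* at 0.14. On normal diet the median of the list was 0.14, and 0 members were called by limma there.

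In the TGF-β and BMP pathway, 23 of 37 members had higher and 14 lower estimates, with a median log2 difference of 0.03 (0.05 without choroid 15) and with all 37 intervals inside 1 log2 unit. Without choroid 12 the median was -0.023, with 16 higher and 21 lower estimates. Among ligands the estimates ran from -0.24 for *Gdf10* to 0.30 for *Tgfb2*. *Tgfb2* stood at 1561, 1035, 1230.3, 1709 and 1834 normalized counts in controls and at 1508, 2037, 2165, 1744 and 1529 in Tgfbr2ΔEC choroids, with broad overlap, and differed by 0.39 without choroid 15 (unadjusted p = 0.034 by limma) and by 0.18 without choroid 12. The abundant ligand gene *Tgfb3* differed by -0.01. Latent binding proteins lay between -0.08 and 0.17. Receptors lay between 0.02 for *Tgfbr2* and 0.19 for *Acvr2b*, with *Tgfbr1* at 0.10, *Acvrl1* at 0.12 and the endoglin gene *Eng* at 0.05. The SMADs that carry the signal lay between -0.06 and 0.13. Inhibitors lay between -0.04 and 0.20, the highest being *Dcn*, a matrix proteoglycan that binds TGF-β, and the feedback inhibitor *Smad7* differed by -0.02.

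Among 20 known targets of the pathway, 12 had higher and 8 lower estimates, with a median of 0.06. The median was -0.018 without choroid 11, -0.012 without choroid 18 and 0.12 without choroid 13. Targets of SMAD2 and SMAD3 lay between -0.18 for *Ccn2* and 0.22 for *Nox4*. The collagen genes *Col1a1* and *Col1a2* differed by 0.14 and 0.17. Targets of SMAD1 and SMAD5 lay between -0.15, for the transcription inhibitors *Id1* and *Id3*, and 0.27 for *Hey1*. *Hey1*, which Notch also induces, stood at 366, 366, 584, 544 and 820.1 normalized counts in controls and 580.5, 579, 779, 660.3 and 512 in Tgfbr2ΔEC choroids. Choroid 15 had the highest value of all 10, and without it the difference was 0.44 (unadjusted p = 0.042 by limma), against 0.15 without choroid 11 or choroid 12.

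Angiogenic ligands and receptors showed small differences in both directions. The VEGF list had 5 members higher and 5 lower with a median of 0.04 (0.08 without choroid 15). *Vegfa* itself, the chief VEGF ligand, differed by -0.04 (0.01 without choroid 15) with an interval from -0.31 to 0.22 and ranged from 5304 to 7757 normalized counts in controls and from 5420 to 7727 in Tgfbr2ΔEC choroids. The co-receptor gene *Nrp2* differed by 0.08. Of 7 genes of angiopoietins and Tie receptors, 3 had higher and 4 lower estimates, with *Angpt2*, a ligand released by activated endothelium, at -0.00 and *Angptl2* at 0.16. Of 20 tip cell and Notch genes, 13 had higher and 7 lower estimates with a median of 0.10 (0.09 without choroid 15 and 0.04 without choroid 12). The tip cell gene *Esm1* differed by 0.01, the Notch ligand gene *Dll4* by 0.15, and the abundant receptor genes *Notch2* and *Notch3* both by -0.01.

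In the list of fenestrated and barrier vessels, 7 genes had higher and 14 lower estimates, with a median of -0.07 (-0.11 without choroid 15). *Plvap*, which builds the diaphragms of fenestrae, differed by -0.07 (-0.14 without choroid 15) with an interval from -0.34 to 0.20, and the glucose transporter gene *Slc2a1* by -0.17. Basement membrane genes had a median of 0.07 over 17 members, which was 0.01 without choroid 15, with *Sparc* at 0.14 and the perlecan gene *Hspg2* at 0.07 (-0.01 without choroid 15). Of 15 genes of pericytes and smooth muscle, 8 had higher and 7 lower estimates, among them the pericyte gene *Rgs5* at 0.20 and the smooth muscle actin gene *Acta2* at 0.07. *Cnn1*, a smooth muscle calponin, differed by -0.36 with all choroids and by -0.63 without choroid 15 (unadjusted p = 0.0096 by limma), but by -0.13 without choroid 14. Its values were 161, 183, 192, 323 and 78.7 normalized counts in controls, lowest in choroid 15, and 136, 133, 185, 101 and 123 in Tgfbr2ΔEC choroids.

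The endothelin list had the second highest median of the 16 lists, after the interferon response, at 0.17 over 7 members (also 0.17 without choroid 15), 6 of them with higher estimates. *Ednrb*, a receptor present on endothelium and melanocytes, stood at 13848, 11160.3, 8875, 10973 and 10772 normalized counts in controls and at 12893, 12956, 13678, 12894 and 12224 in Tgfbr2ΔEC choroids. Choroid 11 was the highest of all 10, and the log2 difference was 0.23 (unadjusted p = 0.044 by limma, and 0.072 without choroid 15). The receptor gene *Ednra*, which acts in smooth muscle, differed by 0.17 (unadjusted p = 0.047 by limma, and 0.073 without choroid 15). The ligand genes differed by -0.17 (*Edn1*), 1.70 (*Edn2*) and 0.12 (*Edn3*). *Edn2* rests on low values, from 0 to 21.5 normalized counts in controls and 6.64 to 20.97 in Tgfbr2ΔEC choroids, and its mean was 21.5 times higher in retina than in choroid. The converting enzyme gene *Ece2* differed by 1.11 (unadjusted p = 0.040 by limma), 1.595 without choroid 15 and 0.69 without choroid 14, its mean being 11.1 times higher in retina. It overlaps *Eef1ece2* on chromosome 16, and the sum of both genes differed by -0.23 (exact permutation test, two-sided, p = 0.611) and by 0.04 without choroid 15, so the estimates of *Ece2* and *Eef1ece2* are uncertain.

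Genes of leukocyte adhesion had a median of -0.01 over 11 members, with *Icam1* at -0.03, *Vcam1* at 0.08 and *Cd44*, a hyaluronan receptor, at -0.01. *Madcam1*, an addressin for lymphocytes, was at 2.75 to 25.9 normalized counts in controls and 16.02 to 28.4 in Tgfbr2ΔEC choroids (log2 difference 0.87, 1.17 without choroid 15 and 0.46 without choroid 12). Of 22 genes of coagulation and fibrinolysis, 19 were tested, with 9 higher and 10 lower estimates and a median of -0.03. The protease inhibitor gene *Serpine2*, the most abundant with *Vwf*, differed by -0.13. *Fga*, *Fgb* and *Fgg*, the genes of the fibrinogen chains, had a mean under 1. *Fga* was listed at 1.02 in mouse 13 and at 3.34 in mouse 16, and at 0 in the other 8 choroids with PLX.

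Genes of the IL-6 family had 4 higher and 13 lower estimates, with a median of -0.11 (-0.15 without choroid 15 and -0.0029 without choroid 13). *Il6* itself stood at 20.1, 25.5, 16.5, 10.998 and 5.21 normalized counts in controls and at 12.2, 11.7, 13.8, 11.97 and 9.61 in Tgfbr2ΔEC choroids, a log2 difference of -0.22 with an interval from -1.37 to 0.93. Without choroid 15, where *Il6* was lowest, the difference was -0.54 with an interval from -1.70 to 0.63 (unadjusted p = 0.348 by limma, and p = 0.0635 in the two-sided exact permutation test). Without choroid 12 the difference of *Il6* was -0.012. The related cytokine genes *Osm* and *Clcf1* differed by -0.24 and -0.37, and by -0.74 and -0.53 without choroid 15. Without choroid 13 they differed by 0.02 and -0.25. The acute-phase genes *Lcn2* and *Saa3* differed by -0.77 and -0.93, and the shared receptor gene *Il6st* by 0.07 (-0.23 to 0.21 when each mouse was left out). With all choroids, 0 of the 17 members had an unadjusted p under 0.05 by limma, and 12 of the 17 intervals lay inside 1 log2 unit. Neutrophil markers, of which 1 of 6 was at 0 in both genotypes, had a score of 4.51 to 5.44 in control + PLX and 4.24 to 5.13 in Tgfbr2ΔEC + PLX choroids. Their score differed by -0.28, and by -0.40 without choroid 15, with 1 and 2 of the 5 tested markers lower at an unadjusted p under 0.05 (against 1.83% and 2.09% of all genes). The score of the 16 MP markers differed by -0.14, with 1 marker higher and 1 lower at that p. Without choroid 15 it differed by -0.22, with 0 markers higher and 4 lower (against 2.09% of all genes). The part of both cell types in these differences was not tested. Among 13 hypoxia response genes, whose median was -0.10 (-0.02 without choroid 15), the glycolytic enzyme gene *Pgk1* had an unadjusted p under 0.05, with a log2 difference of -0.23, and it differed by -0.27 on normal diet. *Pdk1*, of the same list, went the other way at 0.21, and at 0.31 without choroid 15 (unadjusted p = 0.034 by limma). The cell cycle list had a median of 0.05 over 16 members (0.0019 without choroid 15, and -0.0362 to 0.177 when each mouse was left out). The proliferation genes *Mki67* and *Pcna* stood at 0.13 and 0.07, and ran from -0.0066 to 0.36 and from 0.0038 to 0.15 when each mouse was left out.

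With all choroids, genes of the interferon response had the highest median of the 16 lists, which did not hold without choroid 17. All 19 members had a higher estimate in Tgfbr2ΔEC + PLX choroids, the median log2 difference was 0.34 (0.35 without choroid 15), and 3 members had an unadjusted p under 0.05 (against 1.93% of all tested genes being higher at that p), while 0 were called by limma. Without choroid 15 the count was 2, against 2.55% of all tested genes. The antiviral effector *Rsad2* stood at 249.95, 250.3, 140.1, 240.5 and 219 normalized counts in controls and at 331, 870.0, 249.9, 287 and 506 in Tgfbr2ΔEC choroids. *Ifit1*, which binds viral RNA, stood at 549, 564, 495, 522 and 554 in controls and at 612, 2066, 559, 645 and 968 in Tgfbr2ΔEC choroids. In both genes choroid 17 was far above the others and choroid 18 lay inside the control range. The log2 differences were 0.90 for *Rsad2*, 0.66 for *Ifit1* and 0.59 for *Oasl2*, an oligoadenylate synthetase-like gene, with unadjusted p = 0.017, 0.028 and 0.022 by limma. Without choroid 15 these were 0.026, 0.039 and 0.053. The membrane protein *Ifitm3*, an abundant member, differed by 0.11 (0.02 without choroid 15).

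The pattern was weaker without choroid 17, where the endothelin list had as high a median (0.16). In the absence of choroid 17, 16 of the 19 interferon members had a higher estimate. Their median was 0.16 and 0 members had an unadjusted p under 0.05, with *Rsad2* at 0.62, *Ifit1* at 0.34 and *Oasl2* at 0.33. *Tgtp1*, which is outside the list, differed by 0.98 without choroid 17. The mean log2(normalized count + 1) over the list was 9.004, 9.18, 8.99, 8.99 and 8.92 in mice 11 to 15 and 9.01, 10.39, 9.12, 9.24 and 9.45 in mice 16 to 20. On normal diet it ran from 9.19 to 10.09 in controls and from 9.16 to 10.01 in Tgfbr2ΔEC choroids, and the median difference of the members was -0.09.

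**Figure D4:**
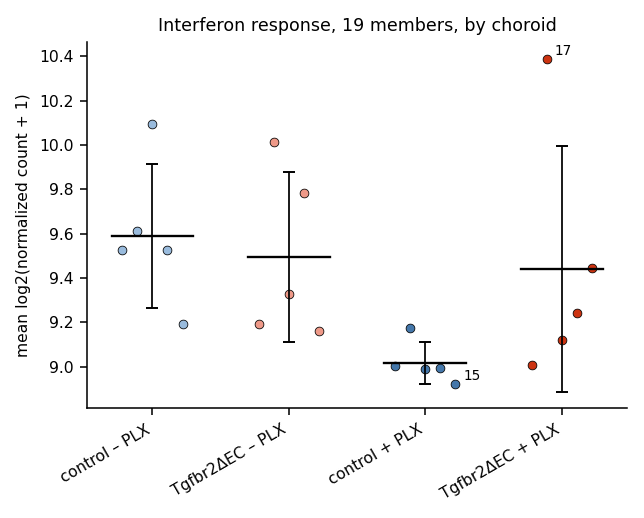
Mean log2(normalized count + 1) over the 19 interferon response genes in each of the 20 choroids (1 point per mouse, bar and whiskers for mean ± SD of the 5 mice of a group). Choroid 17 is at 10.39, and the other 4 Tgfbr2ΔEC + PLX choroids lie between 9.01 and 9.45.

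To show the sequence through which such genes are known to respond, the promoters of the members were read for the core of the interferon-stimulated response element, written GAAANNGAAA and searched on both strands in the 250 bases before the RefSeq transcript start (build GRCm38.p6). Of the 19 members, 14 had a promoter in the table, and 7 of these 16 promoters held a match, against 2.98% of all 32851 promoters. The list was made of genes known to be induced by interferon, so this share follows from the choice of members and bears on no difference between genotypes. *Rsad2* and *Ifit1* are shown because they had the lowest p of those with a match, which is in capitals; *Oasl2* held none. The *Rsad2* sequence is chr12:26456453-26456702 on the reverse strand and the *Ifit1* sequence chr19:34640639-34640888 on the forward strand.
Rsad2: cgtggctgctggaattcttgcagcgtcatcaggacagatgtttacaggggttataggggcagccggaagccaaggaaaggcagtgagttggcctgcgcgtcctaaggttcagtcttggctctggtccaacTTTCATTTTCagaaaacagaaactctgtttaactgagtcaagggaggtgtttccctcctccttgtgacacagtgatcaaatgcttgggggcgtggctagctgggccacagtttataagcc
Ifit1: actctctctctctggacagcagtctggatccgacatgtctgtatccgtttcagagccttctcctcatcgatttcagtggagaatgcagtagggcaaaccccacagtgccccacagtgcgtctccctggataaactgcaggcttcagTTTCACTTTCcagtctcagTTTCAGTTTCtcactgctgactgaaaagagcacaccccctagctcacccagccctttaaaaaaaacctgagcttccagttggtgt
*Ifit1* holds 2 matches, which begin 104 and 85 bases before the start, and *Rsad2* holds 1, which begins 120 bases before it. A match is a description of the letters and was not tested as a binding site.

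The direction of retina-rich genes turned with choroid 15. Among genes whose mean reached 10, 1598 were over 4 times higher in retina than in choroid. Their median log2 difference was -0.14 with all choroids and 0.14 without choroid 15. With all choroids 9 of them were higher and 49 lower at an unadjusted p under 0.05, and without choroid 15 these counts were 85 and 13. The 3849 genes at least 4 times higher in choroid had medians of 0.04 and 0.00. Of these, 134 were higher and 41 lower at an unadjusted p under 0.05 with all choroids, and 96 and 84 without choroid 15. Over all tested genes, 1.93% were higher and 1.83% lower at that p with all choroids, and 2.55% and 2.09% without choroid 15. The neural retina score differed between genotypes by 0.23 with choroid 15 and by 1.07 without it. The 4 remaining controls thus held less neural RNA on average than the Tgfbr2ΔEC choroids, with overlap between the groups. A score of inner retina markers differed by -0.31 with choroid 15 and by 0.39 without it. The part of this in the values without choroid 15 was not tested. *Edn2* and *Ece2*, which are higher in retina, had larger differences in the same direction without choroid 15.

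**Figure D5:**
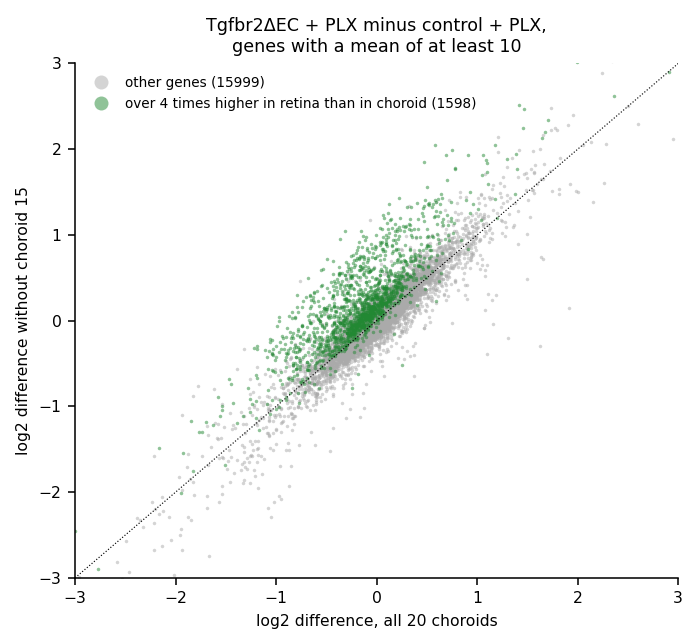
Log2 difference between Tgfbr2ΔEC + PLX and control + PLX choroids with all choroids (horizontal axis) and without choroid 15 (vertical axis) for genes whose mean reached 10 (1 point per gene, 56 genes beyond 3 in either direction not drawn). The 1598 genes over 4 times higher in retina than in choroid lie mostly above the dotted line of equal values, where the estimate is higher without choroid 15.

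The same genotype comparison on normal diet, with other mice in both arms, called 1 gene with all 20 choroids in the fit, again *Gm8748*, while 2184 genes (9.25%) reached an unadjusted p under 0.05, of which 1651 were higher (6.99%) and 533 lower (2.26%). The split was 506 and 374 with the neural retina score as covariate, and 205 and 393 among the 12737 genes at least as high in choroid as in retina. It was 1998 and 323 with scaling over choroid-enriched genes. Without choroid 15, which enters this contrast through the shared estimate of the spread, 410 genes (1.74%) were called there, 403 higher (1.71%) and 7 lower (0.0296%). The neural retina score did not overlap between these genotypes, at 7.35 to 10.35 in control – PLX and 11.17 to 12.76 in Tgfbr2ΔEC – PLX choroids. Adding the neural retina score as a covariate to the fit of those 19 choroids left 0 calls by limma, and 1191 genes reached an unadjusted p under 0.05. The test of the difference between the genotype effects of both diets called 0 genes by limma with or without choroid 15, where 1306 (5.53%, without) and 1552 genes (6.57%, with) stood at an unadjusted p under 0.05. Of the 109 genes with an unadjusted p under 0.05 in both diets, 50 (45.9%) had the same sign.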

How the data were processed

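RNA of 20 choroids and 20 retinas was sequenced as single reads of 50 cycles from stranded, polyadenylated libraries. Per the labels and the methods, the authors quantified reads with Salmon 1.10.1 against GRCm39 and normalized them with DESeq2 1.36.0. The deposited values are this signal per gene (normalized counts), scaled over both tissues together and not whole numbers, so no test for counts was run. All 40 columns were matched to samples; 53700 of 54307 genes matched GENCODE release M39. Genes averaging 1 or more over the 20 choroids were tested with limma 3.58.1 (R 4.3.3, trended prior variance) on log2(value + 1), 4 groups in one fit, with Benjamini-Hochberg adjustment. Differences are on that scale, which understates changes of low genes. Retina values entered the ratios of retina to choroid. The procedure was tested on simulated data. Depth was read from the spacing of low values, and a floor of 3 reads covers counting error only. Sex and the neuronal percentage, covariates of the authors, are not in the labels, so scores stood in for them as alternatives. Each mouse is 1 animal, so the spread is between animals.

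Members, lists and tests were chosen with earlier results of these data known. Named genes are *Tgfbr2*, *Cdh5*, *Pecam1*, *Fga* and *Il6*, genes past the threshold, the 10 protein-coding genes with the lowest p in each direction (mean of at least 20), and list members with an unadjusted p under 0.05 or among the 2 highest means. Other list members were named after their values were seen. Some list members are not reported here. Scores are means of log2(value + 1) over marker lists. Sequences were compared with blastn 2.17.0 (Python 3.11.15). Alternatives were other pseudocounts, minimum means, scalings, variance estimates, covariates, fits of 1 diet and leaving out each mouse.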

Additional observations from a re-analysis of the deposited data

Results flagged for a closer look

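A sample was looked at again where its gap to the nearest of the other 4 of its group exceeded 0.71 of the group's range, for the named genes and the marker scores in the choroids with PLX. This held for 13 of 176 groups. Chance would give about 8.8 for independent groups of normally distributed values, which these groups were not shown to be. Choroid 17 of the Tgfbr2ΔEC + PLX group was apart for *Ifit1* (0.728) and *Oasl2* (0.759), and for *Eef1ece2* (1), where it was the one choroid of its group above 0. Choroid 13, a control, was apart at the low end for *Rsad2* (0.716). Choroid 19 was apart for *Tgtp1* (0.723) and, at the low end, for the mononuclear phagocyte score (0.764), and choroid 18 for *Gm8748* (0.82). Choroid 12 was apart for *Ebi3* (0.857) and *Epas1* (0.797), choroid 11 for *Nrp2* (0.766) and choroid 15 for the lens marker score (0.749). *Fga* was above 0 in mouse 13 and mouse 16 alone (1 in both groups), at values of 1.02 and 3.34 normalized counts, near or under the floor of 3 reads.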

How the results depend on the processing

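With PLX, the count of 1 called gene fell to 0 with a pseudocount of 5, a minimum mean of 10, limma array weights, the neural retina score or the sex score as a covariate, a fit of the 10 choroids alone, and without mouse 15. It was also 0 in the 3 settings added after seeing the data, all without mouse 15 (neural retina score, sex score, choroids of the diet alone). Leaving out each mouse in turn gave 0 or 1. On normal diet the count of 1 became 0 with a minimum mean of 10, 201 in a fit of the 10 choroids alone, 410 without mouse 15, and, without mouse 15, 0 with the neural retina score and 345 with the sex score; leaving out each mouse gave 1 to 410. The count for the difference between diets was 0 in all settings run. The difference of *Tgfbr2* (0.02) changed sign to -0.0253 with the scaling over choroid-enriched genes, -0.0267 without mouse 15 (also in the diet alone), -0.0262 without it and with the sex score, -0.00068 without it and with the neural retina score, and -0.0500 with array weights, and ranged from -0.0392 to 0.0709 when each mouse was left out. That of *Osm* (-0.24) ranged from -0.736 to 0.0204 when each mouse was left out, turning without mouse 13. No paired analysis was possible because the genotypes share no mouse number. Low genes, the floor of 3 reads and 5 mice per group limit what could be detected. The causes of these changes were not tested.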
